A study of Mus musculus with 6 samples.

Results

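Skeletal muscle sarcomere and fibre-type genes were examined in lung RNA of adult female F1 mice. The set holds 42 genes of the contractile filaments, the calcium release machinery, the energy supply, muscle protein breakdown and muscle development, and a probe set belonged to it where the platform annotation gave it a single symbol that is 1 of the 42. This gave 62 probe sets for 41 of the 42 genes, out of 18193 genes with a single-symbol probe set in the series. Xirp2 had no such probe set and was not analysed here. The brightest probe set by mean over all arrays stood for each gene, and all levels are log2 signals.

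The groups were (AKR/J x FVB/NJ)F1 females, called AKR_F1, and (DBA/2J x FVB/NJ)F1 females, called DBA_F1, with 3 Affymetrix arrays each. All parents belonged to inbred strains, so both groups carried 1 chromosome set from FVB/NJ and differed in the set from AKR/J or DBA/2J. The labels name no treatment beyond Avertin anaesthesia before death and give no exact age beyond adult, and they do not say which lobes were frozen or how the lung was trimmed, nor which strain was the dam. The stated question was which genes differ in basal lung expression between the genotypes. Nothing states that the 3 samples of a group were different animals, and p-values then measure only the spread between samples, which may be technical.

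Striated muscle contracts when calcium released from the sarcoplasmic reticulum binds troponin on the thin filament and lets myosin heads of the thick filament pull on actin. Skeletal fibres come in slow and fast types that build the same filament from different gene copies: separate myosin heavy chains, light chains and troponin subunits. Heart muscle shares many of these genes, such as titin, telethonin and myoglobin, but uses its own alpha-actin, myosin heavy chain and troponin I for the most part. Lung tissue itself contains smooth muscle, and in mice cardiac muscle sheathes the pulmonary veins, while skeletal muscle is found in neighbouring organs such as the diaphragm, the chest wall and the oesophagus, which is striated along most of its length in mice.

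Lung identity was clear on every array. The mean log2 signal of 12 lung epithelial and endothelial markers lay between 12.24 and 12.33 on the AKR_F1 arrays and between 12.11 and 12.20 on the DBA_F1 arrays. AKR_F1 replicates 1 and 2 stood apart from the other 4 arrays: they correlated at 0.995 with each other (Pearson, across the 27022 probe sets tested) and at 0.965 to 0.976 with the rest, while AKR_F1 replicate 3 correlated at 0.984 to 0.986 with the DBA_F1 arrays. Squamous epithelium genes separated the arrays in the same way. All 12 measured squamous genes were lowest on AKR_F1 replicates 1 and 2, and their mean signal was 4.46, 4.37 and 8.95 in AKR_F1 and 8.66, 9.25 and 8.49 in DBA_F1. Adipose genes were low on all 3 AKR_F1 arrays, at 7.47, 6.59 and 6.48 against 8.78, 9.37 and 8.28 in DBA_F1. The part of these other tissues in the muscle values was not tested.

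Skeletal muscle genes were low on AKR_F1 replicates 1 and 2 and high on AKR_F1 replicate 3 and all 3 DBA_F1 arrays. Of the 41 measured genes, 35 had their lowest signals on those 2 AKR_F1 arrays, as did 9.56% of all 13202 genes over the filter on low signal. The median over the 41 genes of the signal minus the DBA_F1 mean was -1.43 and -1.45 log2 on AKR_F1 replicates 1 and 2 and 0.34 log2 on AKR_F1 replicate 3, which was above all DBA_F1 arrays in 27 of the 41 (28.1% of all genes). Of the 41 genes, 20 ranged over more than 2 log2 across the arrays, against 1.38% of all genes. Over all genes the same medians were 0.012, 0.031 and 0.000. In bulk tissue, fewer muscle cells and less RNA per muscle cell cannot be told apart. The map of all 41 genes by array shows how far this reached.

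**Figure D1:**
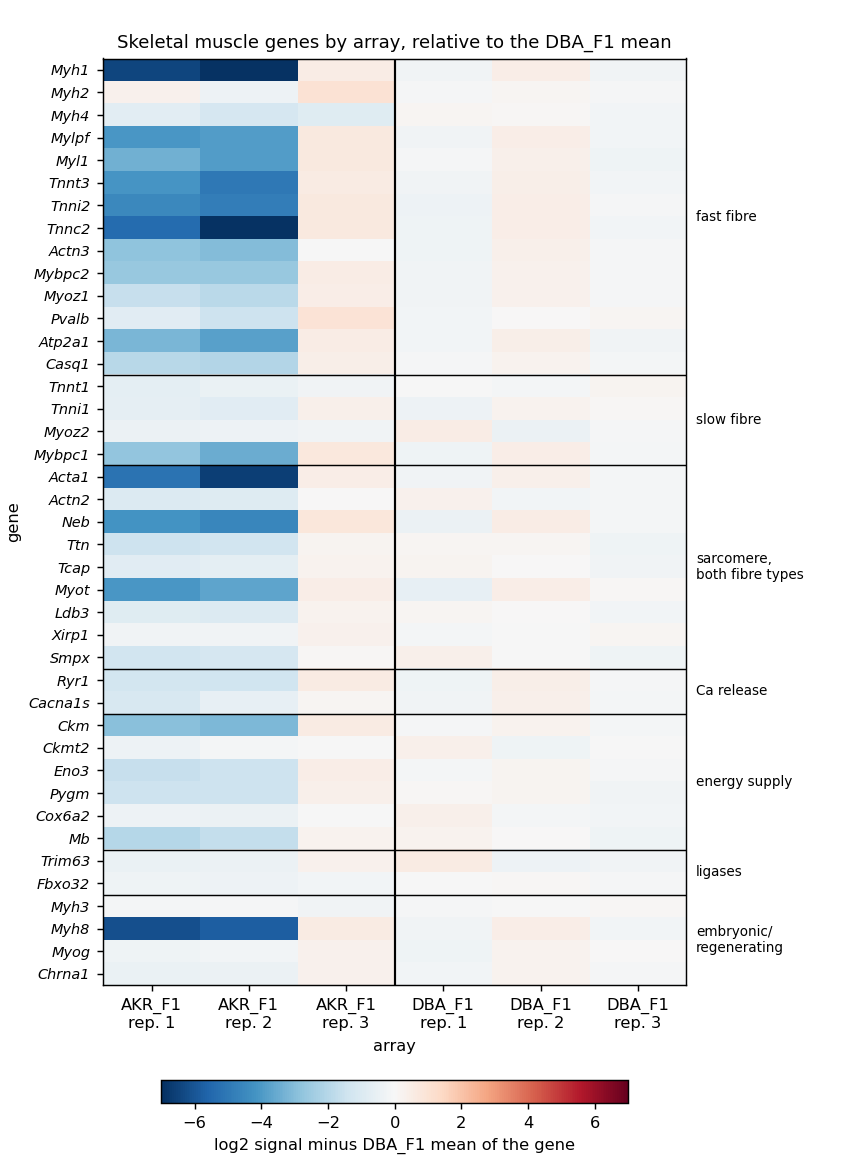
Each row is 1 of the 41 measured skeletal muscle genes, each column 1 array, and the colour is the log2 signal minus the gene's DBA_F1 mean (blue lower, red higher), with rows grouped by role. Acta1, Myh1, Myh8 and Tnnc2 are darkest on AKR_F1 replicates 1 and 2, while AKR_F1 replicate 3 looks like the DBA_F1 arrays or slightly above them.

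No group difference passed the test with all 6 arrays. In the limma fit over all probe sets, 0 of the 37 genes that passed the filter were called at an adjusted p under 0.05, against 2.48% of all genes over the filter. Of these 37, 3 had an unadjusted p under 0.05, against 19.1% of all genes. All 37 differences, AKR_F1 minus DBA_F1, were negative, as were 44.9% of all genes'. In 35 of the 37, AKR_F1 replicates 1 and 2 were the lowest arrays. Myh2, which did not pass the filter, had a positive difference of 0.30. In 26 of the 37 the standard deviation among the AKR_F1 arrays was larger than the group difference itself. The median difference over the 41 genes was -0.86 log2, against 0.015 over all genes.

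The result turned on AKR_F1 replicate 3. Without AKR_F1 replicate 3, 27 of the 37 tested genes were called, all lower in AKR_F1. Over all genes 4.97% were called and 2.89% were called lower in AKR_F1. That fit leaves out the high AKR_F1 array by construction and rests on 2 AKR_F1 arrays, here and wherever it is used below. It kept the filter on the mean over all 6 arrays. Myh1, Myh8, Neb, Myot and Mybpc1 were under the filter level of 4.72 on both remaining AKR_F1 arrays. They passed it through arrays where they were high, which favours a call lower in AKR_F1. With AKR_F1 replicate 3 as the only AKR_F1 array, 0 of the 37 were called (0.258% of all genes were), 4 had an unadjusted p under 0.05, and the median difference was 0.34 log2 higher in AKR_F1. In that last fit the residual spread came from the DBA_F1 arrays alone. Leaving out any other single array gave 0 called members, where the calls over all genes were 0.629% and 0.659% on dropping AKR_F1 replicate 1 or AKR_F1 replicate 2. On dropping a DBA_F1 array they were 2.02% for replicate 1, 0.818% for replicate 2 and 2.77% for replicate 3.

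**Figure D2:**
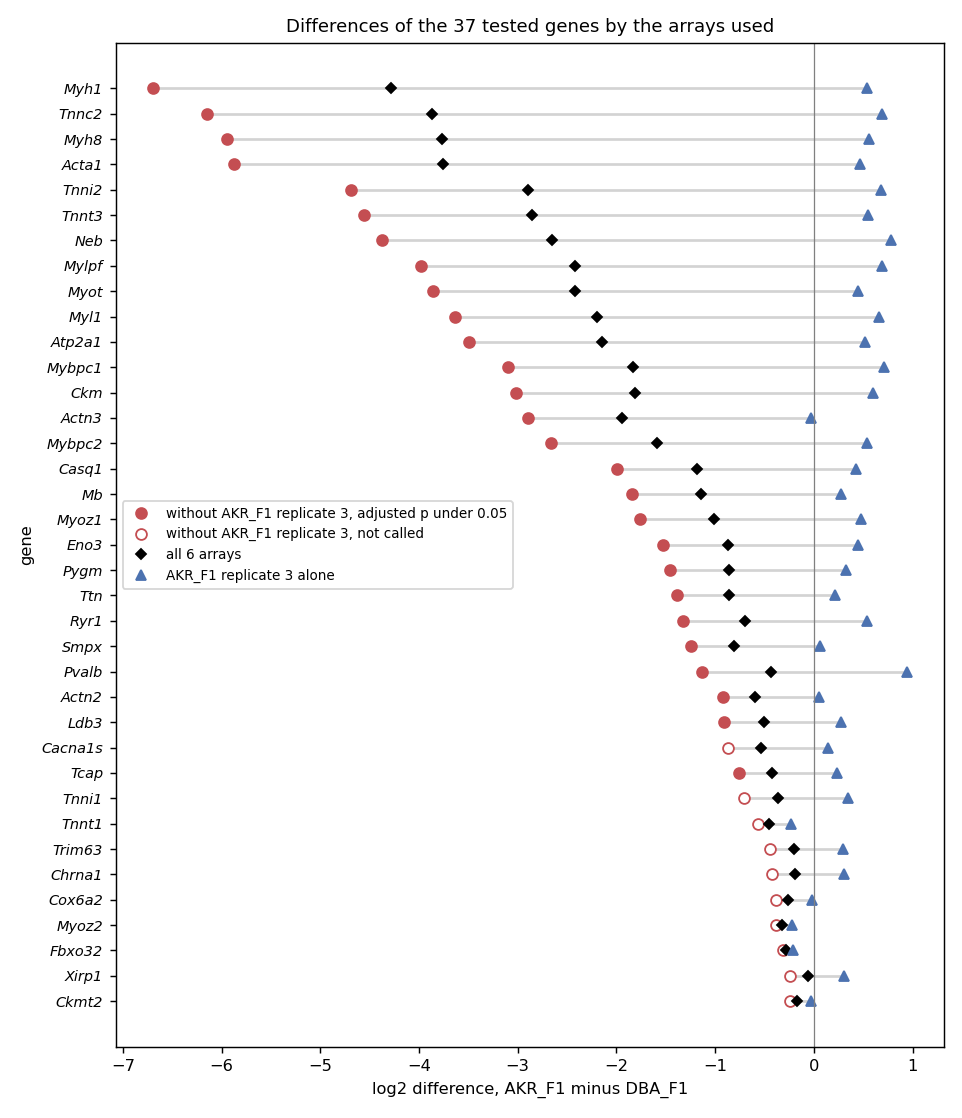
The horizontal axis is the log2 difference, AKR_F1 minus DBA_F1, for each of the 37 tested genes (rows), from all 6 arrays (black diamonds), without AKR_F1 replicate 3 (red circles, filled where the adjusted p was under 0.05) and with AKR_F1 replicate 3 as the only AKR_F1 array (blue triangles). The red points reach -6.69 for Myh1, while the blue points lie between -0.23 and 0.94.

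Fast fibre genes had a median range of 3.86 log2 over the 6 arrays, against 1.93 over all 41 members. The fast myosin heavy chain Myh1 (type IIx) had a log2 signal of 3.80, 3.29 and 10.77 in AKR_F1 (replicates 1, 2 and 3, in that order throughout), against 9.97, 10.71 and 10.01 in DBA_F1. AKR_F1 replicate 3 was the highest of the 6, so the groups overlapped, and the difference was -4.28 ± 1.83 (SE, n = 3 per group, limma adjusted p = 0.274). In the fit without AKR_F1 replicate 3, which leaves out the high AKR_F1 array by construction, the difference was -6.69 ± 0.25 (limma adjusted p = 8.32e-05).

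Troponin C binds the calcium, troponin I blocks myosin binding and troponin T ties the complex to tropomyosin. The fast troponin C gene Tnnc2 had the widest range of all the members, 7.63 log2, with signals of 5.54, 3.96 and 11.59 in AKR_F1 against 10.60, 11.36 and 10.73 in DBA_F1 (difference -3.87 ± 1.76 SE, limma adjusted p = 0.301). The fast troponin I gene Tnni2 had 5.67, 5.37 and 10.89 in AKR_F1 against 9.86, 10.66 and 10.10 in DBA_F1. The fast troponin T gene Tnnt3 had 5.41, 4.57 and 10.11 in AKR_F1 against 9.33, 9.95 and 9.37 in DBA_F1. In all 3 subunits AKR_F1 replicate 3 was the highest array and AKR_F1 replicate 2 the lowest. Their differences with all arrays were -2.90 for Tnni2 (limma adjusted p = 0.315) and -2.86 for Tnnt3 (limma adjusted p = 0.302).

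The light chains of fast myosin followed. Myl1, the essential light chain, had 6.87, 6.29 and 10.88 in AKR_F1 against 10.12, 10.60 and 9.94 in DBA_F1. Mylpf, the regulatory light chain, had 5.39, 5.57 and 10.15 in AKR_F1 against 9.20, 9.93 and 9.26 in DBA_F1. The groups overlapped in both, with adjusted p of 0.340 and 0.333 in the limma fit.

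Other fast fibre genes were low on the same arrays with smaller spans. The calcium pump Atp2a1 (SERCA1) had 5.79, 5.17 and 9.50 in AKR_F1 against 8.77, 9.40 and 8.75 in DBA_F1. The Z-disc crosslinker Actn3, which is confined to fast fibres in skeletal muscle, had 4.76, 4.53 and 7.52 in AKR_F1 against 7.27, 7.91 and 7.47 in DBA_F1. It was the fast gene with the smallest unadjusted p in the limma fit, 0.0336 (adjusted p = 0.228). The fast myosin-binding protein Mybpc2 ranged over 3.21 log2, the calcium store protein Casq1 over 2.48, the calcium buffer parvalbumin (Pvalb) over 2.41 and the Z-disc protein Myoz1 over 2.36. Of the 37 tested genes Pvalb was the furthest above its DBA_F1 mean on AKR_F1 replicate 3 (0.94): it had 5.46, 4.79 and 7.20 in AKR_F1 against 6.07, 6.31 and 6.40 in DBA_F1.

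The remaining fast myosins were near or under the filter level of 4.72 log2, and genes with a mean below it were not tested. Myh2 (type IIa) had 3.99, 3.32 and 4.72 in AKR_F1 against 3.64, 3.82 and 3.64 in DBA_F1. Myh4 (type IIb), the fastest and in mouse limb muscle an abundant form, had 3.97, 3.50 and 3.86 in AKR_F1 against 4.82, 4.77 and 4.49 in DBA_F1. Unlike the other fast genes, Myh4 was low on AKR_F1 replicate 3 too, and its groups were fully separate, a pattern seen in 24.2% of all genes over the filter. It was not tested in the filtered fit. In the limma fit without a filter its difference of -0.92 ± 0.15 (SE) had an adjusted p of 0.0283, and it was the only 1 of 41 members called there, against 1.62% of all genes. Its other probe set differed by -0.16 at a mean signal of 3.13.

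Myh8, the perinatal myosin heavy chain that is made before and around birth and in regenerating fibres, had 3.06, 3.44 and 9.76 in AKR_F1 against 8.92, 9.64 and 9.02 in DBA_F1 (difference -3.77 ± 1.64 SE, limma adjusted p = 0.282). Its deviations from the DBA_F1 mean were like those of Myh1: on AKR_F1 replicate 3 Myh8 was 0.56 above its mean and Myh1 0.54 above. The other developmental genes had narrower ranges than Myh8. The embryonic myosin Myh3 stayed between 2.76 and 3.11 on all 6 arrays, and the myogenic transcription factor myogenin (Myog) between 3.54 and 4.14. The acetylcholine receptor subunit Chrna1 had 4.38, 4.46 and 5.15 in AKR_F1 against 4.65, 5.12 and 4.79 in DBA_F1 (adjusted p = 0.707 in the limma fit). The skeletal myosin heavy chains are close paralogs, and whether the probes of Myh1 and Myh8 detect each other's transcripts was not tested.

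**Figure D3:**
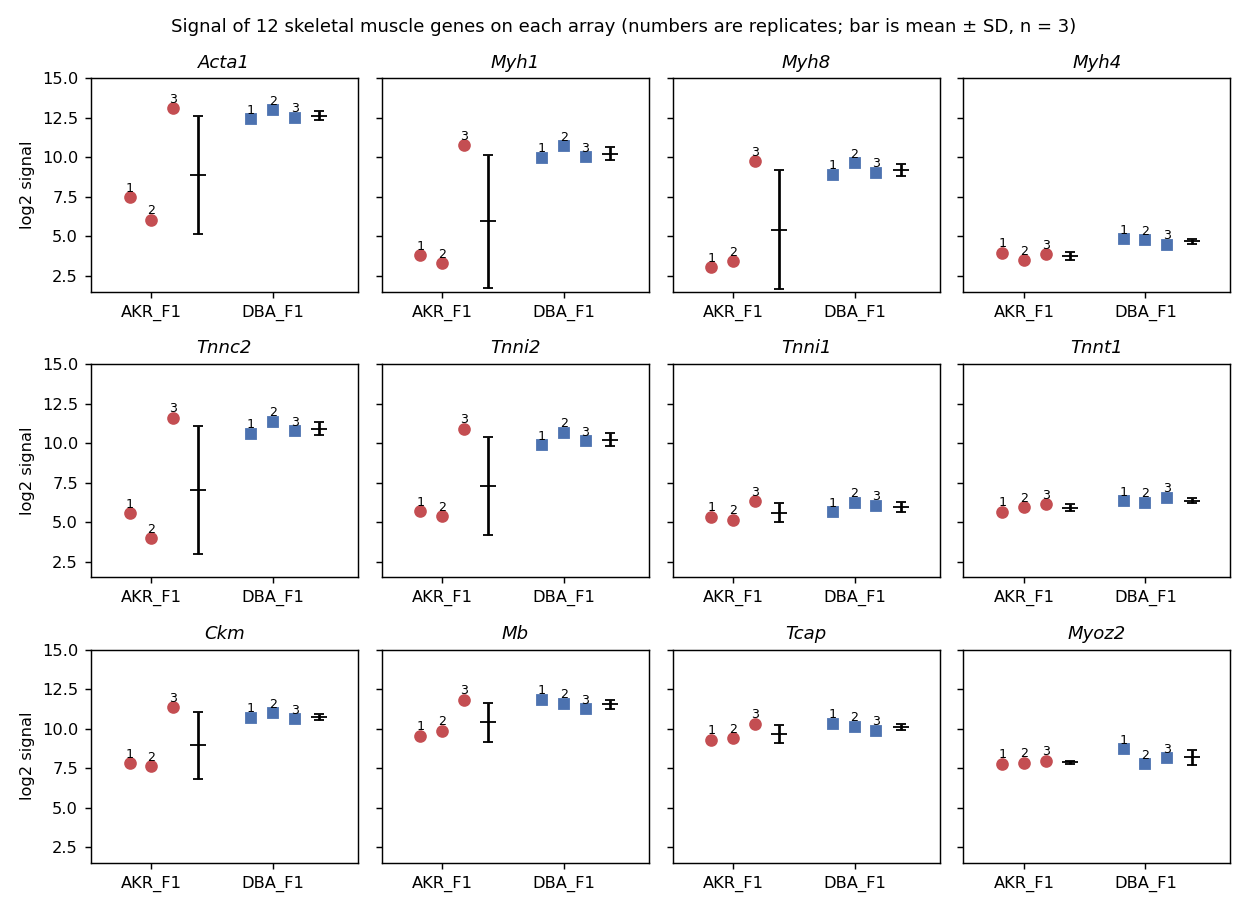
Each panel is 1 of 12 skeletal muscle genes, the vertical axis is the log2 signal, and each point is 1 array numbered by replicate (AKR_F1 red circles on the left, DBA_F1 blue squares on the right), with the mean ± SD (n = 3) as a bar beside it. Acta1, Myh1, Myh8, Tnnc2 and Tnni2 have AKR_F1 replicates 1 and 2 far below the rest. The gap is smaller for Mb and smaller again for Tcap. Tnnt1, Myh4 and Myoz2 have no wide gap between those arrays and the rest.

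The promoters of the 4 genes with the widest range across arrays are given here with that of Myoz2, a Z-disc gene. Its signal ranged over 0.93 log2, against 0.28 for the median of all genes. This sets genes that varied together beside one that varied less. The promoters shown are the 250 bases before the annotated start from RefSeq (GRCm38.p6), 5′ to 3′ on the gene's strand. Capitals mark E-boxes (CANNTG, bound by myogenic factors), TATA boxes (TATAAA), CArG boxes (bound by serum response factor) and MEF2 sites, each searched on both strands, and overlapping matches run together.
Tnnc2, chr2:164779735-164779984, minus strand: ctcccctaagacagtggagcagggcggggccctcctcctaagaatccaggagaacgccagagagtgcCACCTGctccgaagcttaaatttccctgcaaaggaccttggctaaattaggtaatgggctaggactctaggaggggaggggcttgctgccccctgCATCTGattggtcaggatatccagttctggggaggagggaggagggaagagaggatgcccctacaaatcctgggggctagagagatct
Myh1, chr11:67199852-67200101, plus strand: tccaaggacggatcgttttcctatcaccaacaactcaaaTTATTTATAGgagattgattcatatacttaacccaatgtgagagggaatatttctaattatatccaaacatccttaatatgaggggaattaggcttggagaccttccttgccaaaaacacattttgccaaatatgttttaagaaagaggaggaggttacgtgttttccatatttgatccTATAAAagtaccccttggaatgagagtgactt
Acta1, chr8:123894776-123895025, minus strand: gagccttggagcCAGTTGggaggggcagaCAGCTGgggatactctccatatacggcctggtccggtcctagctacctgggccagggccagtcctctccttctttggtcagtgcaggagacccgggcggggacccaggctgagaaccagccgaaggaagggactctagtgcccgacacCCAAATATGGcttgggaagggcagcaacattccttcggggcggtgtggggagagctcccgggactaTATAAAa
Myh8, chr11:67276874-67277123, plus strand: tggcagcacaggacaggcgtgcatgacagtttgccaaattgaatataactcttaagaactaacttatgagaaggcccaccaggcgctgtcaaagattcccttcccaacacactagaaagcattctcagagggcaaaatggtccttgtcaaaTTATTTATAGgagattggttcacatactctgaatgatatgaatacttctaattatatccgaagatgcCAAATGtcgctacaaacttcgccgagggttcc
Myoz2, chr3:123034988-123035237, minus strand: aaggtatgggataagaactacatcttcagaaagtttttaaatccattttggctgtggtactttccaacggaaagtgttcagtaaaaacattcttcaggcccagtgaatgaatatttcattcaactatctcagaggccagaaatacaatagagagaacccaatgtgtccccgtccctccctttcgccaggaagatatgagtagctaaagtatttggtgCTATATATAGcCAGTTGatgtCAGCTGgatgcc

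In these windows Tnnc2 had 2 E-boxes, and Acta1 had 2 E-boxes, a CArG box and a TATA box. Myh1 and Myh8, which lie in the same row of myosin genes on chromosome 11 with Myh3, Myh2 and Myh4, each held a MEF2 site with the same 10 letters, TTATTTATAG, overlapping a TATA box read on the other strand. Myh1 also held a TATA box nearer its start, and Myh8 an E-box. Myoz2 held a MEF2 site and 2 E-boxes, so these motifs were also present in the gene with the narrower range. A RefSeq window of 300 bases, from 250 before to 50 after the start, was matched for 32 of the 42 members (37 windows). An E-box was found in 81.1% of the member windows and 72.3% of all 32851 windows, a TATA box in 24.3% and 13.6%, a CArG box in 10.8% and 1.63%, and a MEF2 site in 18.9% and 3.19%. These are matches of letters only. The CArG box was found in Acta1, Ldb3 and Myh4, and the MEF2 site in Myh1, Myh4, Myh8, Myoz2, Pvalb, Ttn and Xirp2.

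The thin and thick filament genes used by both fibre types had wider or narrower ranges. Skeletal alpha-actin (Acta1) had 7.48, 6.07 and 13.12 in AKR_F1 against 12.43, 12.99 and 12.52 in DBA_F1, with AKR_F1 replicate 3 the highest array (difference -3.76 ± 1.63 SE, limma adjusted p = 0.279). Nebulin (Neb), which spans the skeletal thin filament, differed by -2.65 ± 1.31 (SE, limma adjusted p = 0.338). The Z-disc protein myotilin (Myot) averaged 4.55 ± 2.50 in AKR_F1 and 6.97 ± 0.52 in DBA_F1 (SD, n = 3 each). The 3 genes ranged over 7.05, 5.33 and 4.52 log2.

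Sarcomere genes that heart muscle also makes had smaller ranges than Acta1, Neb and Myot, at 1.64 log2 for Ttn against 0.28 for the median of all genes. Titin (Ttn), the giant spring of the sarcomere, had 7.78, 7.86 and 9.42 in AKR_F1 against 9.36, 9.36 and 8.92 in DBA_F1. Its cap protein telethonin (Tcap) had 9.28, 9.40 and 10.32 in AKR_F1 against 10.30, 10.13 and 9.85 in DBA_F1. The Z-disc actinin Actn2 had 7.48, 7.55 and 8.48 in AKR_F1 against 8.73, 8.25 and 8.32 in DBA_F1. In these 3 genes AKR_F1 replicates 1 and 2 were again the lowest arrays. Smpx ranged over 1.64 log2, the Z-disc PDZ protein Ldb3 over 1.22 and the actin-binding Xirp1 over 0.54. Without AKR_F1 replicate 3, 8 of these 9 genes of both fibre types were called (4.97% of all genes were), from -5.87 for Acta1 to -0.76 for Tcap, and Xirp1 was not (-0.24, adjusted p = 0.280 in the limma fit).

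Slow fibre genes differed among themselves. The slow troponin T gene Tnnt1 had 5.66, 5.92 and 6.13 in AKR_F1 against 6.31, 6.22 and 6.54 in DBA_F1, without overlap, and a difference of -0.46 ± 0.14 (SE, limma adjusted p = 0.153). The slow troponin I gene Tnni1 had 5.34, 5.16 and 6.30 in AKR_F1 against 5.61, 6.22 and 6.04 in DBA_F1, with AKR_F1 replicate 3 again the highest. Myoz2, the Z-disc protein of slow fibres and heart, had 7.77, 7.84 and 7.96 in AKR_F1 against 8.69, 7.75 and 8.11 in DBA_F1, where DBA_F1 replicate 2 was the lowest array of all. The myosin-binding protein Mybpc1, named for slow fibres though fast fibres make it too, had the order of arrays seen in the fast genes, with 4.71, 4.01 and 8.18 in AKR_F1 against 7.14, 7.92 and 7.33 in DBA_F1.

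Set side by side, the medians of the fast and slow lists were low on the same arrays by unlike amounts. AKR_F1 replicates 1 and 2 were the lowest arrays in 12 of the 14 fast and 3 of the 4 slow genes. Among all genes over the filter 9.56% had this order. Myh2, Myh4 and Myoz2 did not. Relative to the DBA_F1 means, the 14 fast genes had medians of -2.98, -3.41 and 0.55 in AKR_F1 and -0.22, 0.37 and -0.16 in DBA_F1. The 4 slow genes had medians of -0.66, -0.62 and 0.06 in AKR_F1 and -0.19, 0.06 and 0.01 in DBA_F1. The median group difference was -2.05 for the fast and -0.41 for the slow genes. The slow list is short and mixed. Tnnt1 and Tnni1 did not exceed 6.54 on any array, heart also makes Myoz2, and fast fibres also make Mybpc1. Without AKR_F1 replicate 3, all 12 tested fast genes were called lower in AKR_F1, against 2.89% of all genes, and of the 4 slow genes only Mybpc1 was (-3.10, adjusted p = 0.00227 in the limma fit). The other 3 had differences of -0.71 for Tnni1 (adjusted p = 0.095 in limma), -0.57 for Tnnt1 (adjusted p = 0.0676 in limma) and -0.38 for Myoz2 (adjusted p = 0.451 in limma). The difference between the fast and the slow list was not tested, and counts without AKR_F1 replicate 3 rest on 2 AKR_F1 arrays.

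**Figure D4:**
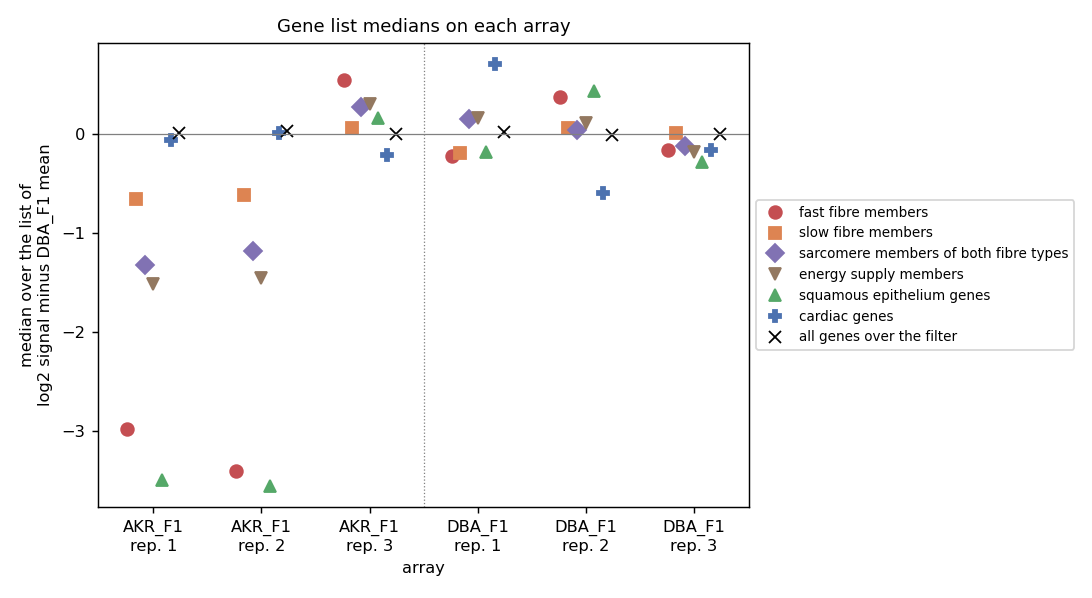
The vertical axis is the median over a gene list of the log2 signal minus each gene's DBA_F1 mean, for each of the 6 arrays on the horizontal axis. The fast fibre and squamous epithelium lists lie at -2.98 and -3.50 on AKR_F1 replicate 1 and at -3.41 and -3.56 on AKR_F1 replicate 2, the slow fibre list at -0.66 and -0.62, and the cardiac list is highest on DBA_F1 replicate 1 (0.71).

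In excitation and calcium release, the channel genes had moderate spans. Ryr1, the calcium release channel of the sarcoplasmic reticulum, had 5.41, 5.28 and 7.22 in AKR_F1 against 6.37, 7.06 and 6.59 in DBA_F1. Cacna1s, the voltage sensor that opens it, had 4.59, 5.13 and 5.87 in AKR_F1 against 5.49, 6.11 and 5.59 in DBA_F1. Both were lowest on AKR_F1 replicates 1 and 2. Without AKR_F1 replicate 3 Ryr1 was called (-1.33, limma adjusted p = 0.0163) and Cacna1s was not (-0.87, limma adjusted p = 0.0988).

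Energy supply genes had wider and narrower ranges, against a median of 0.28 log2 for all genes. Muscle creatine kinase (Ckm), which restores ATP from phosphocreatine, had 7.82, 7.62 and 11.34 in AKR_F1 against 10.68, 10.97 and 10.58 in DBA_F1. Myoglobin (Mb), the oxygen store of heart and oxidative fibres, had 9.54, 9.86 and 11.81 in AKR_F1 against 11.81, 11.58 and 11.23 in DBA_F1. The glycolytic enzyme Eno3 had 8.38, 8.54 and 10.44 in AKR_F1 against 9.88, 10.20 and 9.89 in DBA_F1. In all 3 the gap was between AKR_F1 replicates 1 and 2 and the other arrays. The glycogen phosphorylase Pygm ranged over 1.80 log2. The muscle and heart cytochrome oxidase subunit Cox6a2 had 8.91, 8.83 and 9.23 in AKR_F1 against 9.58, 9.11 and 9.05 in DBA_F1. The mitochondrial creatine kinase Ckmt2 ranged over 0.68 log2. Ckm, Mb, Eno3 and Pygm were called without AKR_F1 replicate 3, from -3.02 to -1.46, and Cox6a2 and Ckmt2 were not (adjusted p of 0.247 and 0.519 in limma).

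The ubiquitin ligases that mark muscle protein for breakdown in wasting ranged over 0.45 log2 (Fbxo32) and 1.06 log2 (Trim63). The median range was 1.93 over the 41 members and 0.28 over all genes. Both ligases were lowest on AKR_F1 replicates 1 and 2. Fbxo32 (atrogin-1) had 7.08, 7.01 and 7.15 in AKR_F1 against 7.32, 7.46 and 7.29 in DBA_F1. Its groups did not overlap, as in 2 of the 37 tested members, against 24.2% of all genes over the filter. Its difference of -0.28 ± 0.07 (SE) had the lowest adjusted p of all members in the limma fit, 0.106. Its other 2 probe sets differed by -0.07 and -0.10. Trim63 (MuRF1) had 5.16, 5.21 and 5.92 in AKR_F1 against 6.22, 5.29 and 5.39 in DBA_F1, with DBA_F1 replicate 1 the highest.

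Members that heart muscle also makes were set beside the rest by which DBA_F1 array was highest. This split of the members by textbook knowledge was made after the values were seen, and it is given as a description. Of 14 measured genes made in heart and skeletal muscle, DBA_F1 replicate 1 was the highest DBA_F1 array in 9, and of 27 others in 1, Myh4. Over all genes this share was 41.4%. DBA_F1 replicate 2 was the highest in 4 of the 14 and in 23 of the 27, against 24.9% of all genes. On a separate list of 15 heart genes, 14 were highest in DBA_F1 on replicate 1. Their mean signal was 8.03, 8.12 and 7.89 in AKR_F1 and 9.02, 7.64 and 7.90 in DBA_F1. Squamous genes were highest in DBA_F1 on replicate 2 in 12 of 12, and the part of either tissue in the member values was not tested. The median range over all arrays was 1.14 log2 in the 14 and 3.21 log2 in the 27, against 0.28 for all genes, and 12 of the 27 ranged over more than 4 log2, as did 0 of the 14 and 0.432% of all genes.

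Among other muscle genes taken from lists of the same pathway, 80 of 85 were measured, and 0 of the 67 that passed the filter were called in either direction. For 50 of the 80, AKR_F1 replicates 1 and 2 were the lowest arrays, against 9.56% of all genes over the filter. Without AKR_F1 replicate 3, 23 of the 67 were called, all lower in AKR_F1, where 4.97% of all genes were called and 2.89% were lower. They were 9 of 20 further sarcomere genes, 5 of 16 calcium and excitation genes, 7 of 17 energy genes, 1 of 6 slow fibre genes and 1 of 8 myogenic and synapse genes. These included the sarcomere stabiliser Klhl41 (-2.83, limma adjusted p = 0.000437), the calcium release partner triadin (Trdn, -1.64), the calcium channel gamma subunit Cacng1 (-1.60) and the M-band protein Myom2 (-1.07). The muscle determination factor gene Myf6 was the myogenic one (-1.12, limma adjusted p = 0.0334). Of the called genes, Klhl41, Cacng1, Myf6, Jph1, Myoz3 and Ampd1 were under the filter level of 4.72 on both remaining AKR_F1 arrays. They passed it through arrays where they were high, which favours a call lower in AKR_F1. Among the called energy genes, Car3 and Slc2a4 were below all DBA_F1 arrays on AKR_F1 replicate 3 too, as were all 8 measured adipose genes. The part of adipose tissue in their values was not tested.

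Slow genes outside the set split as well. The light chain Myl3, made in slow fibres and heart, had 7.59, 7.94 and 10.52 in AKR_F1 against 9.96, 10.46 and 10.04 in DBA_F1. These values are from the brightest of 3 Myl3 probe sets, and the others are not given here. Whether its probes also detect transcripts of other light chain genes, such as Myl1, was not tested. The slow and cardiac myosin heavy chain Myh7 had the opposite order, with 8.45, 8.75 and 8.37 in AKR_F1 against 8.12, 7.68 and 7.96 in DBA_F1 (difference 0.60 ± 0.14 SE, limma adjusted p = 0.0822). The slow and cardiac troponin C gene Tnnc1 had 9.48, 9.58 and 9.39 in AKR_F1 against 10.47, 9.29 and 9.77 in DBA_F1. Its difference was -0.36 (limma adjusted p = 0.521), and that of Atp2a2, the calcium pump of slow fibres, heart and other cells, was 0.02 (limma adjusted p = 0.978).

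Probe sets of 1 gene did not all report the same span. Of the 41 genes, 12 had several probe sets. The second probe set of Myh1 differed by -4.22, close to the -4.28 of the first, and the third by -0.14 at a mean signal of 3.53. The 3 probe sets of Tnni2 differed by -2.90, -2.12 and -0.18, the last at a mean of 2.85. The second probe sets of Ckm, Mb and Myoz1 differed by -0.04, -0.11 and -0.14, at mean signals of 4.70, 5.11 and 2.97. For Ttn the 6 probe sets lay between -0.91 and -0.25, and for Mybpc1 the 3 lay between -1.83 and -0.84.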

How the data were processed

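Total RNA from mouse lung was labelled with biotin and hybridised to Affymetrix arrays, per the labels. The deposited values are log2 signals, 1 per probe set and array, with array medians of 5.46 to 5.49, and the authors' normalization method is not stated. MAS5 and RMA are named, without versions or roles, in the submitters' processing notes. With 3 arrays a group, array number limits the precision. Of the table's probe sets 64 controls were dropped and 45037 kept, 34945 with 1 symbol, 932 with several and 9160 with none. The lowest 40% by mean over all arrays (at most 4.72) were left out, leaving 27022 probe sets, for limma 3.58.1 under R 4.3.3 (lmFit, eBayes with trend, group as the only term, two-sided, Benjamini-Hochberg over all 27022, called under 0.05). The fit was tested on simulated data. Differences are AKR_F1 minus DBA_F1.

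Members and lists were chosen with earlier results of these data known. Values on every array are given for up to 4 of the brightest members over the filter per role, and for other fast and slow members, while Myh2, Myh3, Myh4, Myl3, Myh7, Tnnc1 and other genes named outside that rule were chosen after their values were seen. Alternatives were other normalizations, filters and variance models, array weights, a replicate block, leaving out arrays and other probe set summaries.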

Additional observations from a re-analysis of the deposited data

How the results depend on the processing

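Of the 37 tested members (28 under the 60% filter) 0 were called with quantile normalization, median centring, the 60% filter, no trend, robust eBayes, array weights, the replicate block and either other summary of probe sets. Without a filter 1 was called, Myh4, which is not tested otherwise. Leaving out 1 array gave 0 to 27 called members, with 27 when AKR_F1 replicate 3 was absent. Called probe sets in the whole table numbered 707, 1198 with array weights, 85 with AKR_F1 replicate 3 as the only AKR_F1 array, and 198 to 1171 with 1 array left out (AKR_F1 replicate 1 absent 198, AKR_F1 replicate 2 absent 199, DBA_F1 replicate 2 absent 249, AKR_F1 replicate 3 absent 1171). With AKR_F1 replicate 3 as the only AKR_F1 array the medians were 0.34 for all members, 0.55 for fast and 0.06 for slow genes, against -0.86, -2.05 and -0.41. The log2 differences of these members then turned positive: Myh1 0.54, Mylpf 0.69, Myl1 0.66, Tnnt3 0.55, Tnni2 0.68, Tnnc2 0.69, Mybpc2 0.54, Myoz1 0.48, Pvalb 0.94, Atp2a1 0.52, Casq1 0.43, Tnni1 0.34, Mybpc1 0.71, Acta1 0.47, Actn2 0.05, Neb 0.78, Ttn 0.21, Tcap 0.23, Myot 0.45, Ldb3 0.27, Xirp1 0.30, Smpx 0.06, Ryr1 0.54, Cacna1s 0.14, Ckm 0.60, Eno3 0.45, Pygm 0.32, Mb 0.27, Trim63 0.29, Myh8 0.56 and Chrna1 0.30. None of these was called, and the low AKR_F1 arrays are left out by construction. With 1 array left out, Pvalb ran from -1.13 to 0.07, Xirp1 from -0.24 to 0.03 and Trim63 from -0.45 to 0.09. Their positive values came without AKR_F1 replicate 2 for Pvalb, without AKR_F1 replicate 1 or 2 (0.03) or DBA_F1 replicate 3 (0.01) for Xirp1, and without DBA_F1 replicate 1 for Trim63. Same-numbered arrays of the groups did not all deviate together (correlations of 0.311, -0.228 and -0.0497), so the numbers were not taken to pair samples, and with the replicate block 539 probe sets and 0 members were called. Without detection calls, how far signals under 4.72 lie above background was not tested.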
